A study of Mus musculus with 58 samples.

Results

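Pecam1, Vcam1, Icam1, Cd44, Alcam and F11r encode cell surface molecules through which cells hold on to other cells or to matrix, and their RNA was followed in sorted mouse microglia. The 6 genes were taken by symbol from 3 raw count tables. All 6 were among the 24940 genes of the age table. 5 of them were among the 10277 genes of the table of antisense oligonucleotide (ASO) injections in wild-type mice and among the 10589 genes of the matching SgshKO table, and Alcam was in neither. The genes were chosen with results of these data in view: lower Pecam1 in SgshKO mice at each age, and higher Vcam1 after the Tfeb ASO. Those 4 contrasts (SgshKO against WT at 3 ages, and the Tfeb ASO against its control) are therefore given for these genes as a description, with no p-value for any member. How many members passed the threshold there is printed once beside the share of all genes, and nothing is read from it.

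The 58 libraries are polyA RNA of CD11b+, CD45low, CX3CR1+ microglia, sorted out of C57BL/6 forebrain. Sgsh encodes sulfamidase, a lysosomal enzyme that degrades heparan sulfate, and its loss causes the storage disease mucopolysaccharidosis IIIA. The age series, with no injection, holds 3 WT and 4 SgshKO libraries at 3 weeks, 2 and 2 at 4 months, and 4 and 7 at 8 months. In WT mice, 4 libraries each came from mice given 1 intracerebroventricular injection: PBS, the control ASO (ntc), the Mitf ASO, the Tfeb ASO or the Tfe3 ASO. In SgshKO mice, 8 libraries followed the ntc ASO and 8 the Mitf and Tfe3 ASOs together (combo). Microglia were taken 14 days after injection. The labels give neither sex, the age of the injected mice nor the form of the Sgsh allele, and do not say whether a library is 1 mouse, so p-values measure the spread between these libraries, which may be technical.

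MITF, TFEB and TFE3 are related transcription factors that bind E-box sequences and drive lysosomal and autophagy genes. Among the adhesion molecules, PECAM1 (CD31) binds itself on a neighbouring cell and signals through phosphatases. VCAM1 and ICAM1 are immunoglobulin-family ligands of leukocyte integrins, and in inflamed vessels they arrest circulating cells. CD44 is the main hyaluronan receptor and also binds osteopontin (Spp1) and serglycin (Srgn). ALCAM binds itself and CD6, and F11R (JAM-A) binds itself and the integrin LFA-1. Microglia, as tissue macrophages, carry several of these molecules at rest.

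On mm10 the age table places Pecam1 at chr11:106654213-106715281 on the minus strand, Vcam1 at chr3:116110020-116129688 on the minus strand and Icam1 at chr9:21015940-21028814 on the plus strand. Cd44 lies at chr2:102811142-102901665 and Alcam at chr16:52248996-52453081, both on the minus strand, and F11r at chr1:171437561-171464593 on the plus strand. RefSeq promoter sequences (GRCm38.p6) were matched for Icam1, Cd44, Alcam and F11r. The 250 bases before the start of 3 of them are printed because they belong to the member with no called change between genotypes or ages (Icam1) and to a pair that was much higher in older SgshKO microglia (Cd44, Alcam). They run 5′ to 3′ on the strand of the gene, and capitals mark motif matches.
Icam1, chr9:21015690-21015939, plus strand: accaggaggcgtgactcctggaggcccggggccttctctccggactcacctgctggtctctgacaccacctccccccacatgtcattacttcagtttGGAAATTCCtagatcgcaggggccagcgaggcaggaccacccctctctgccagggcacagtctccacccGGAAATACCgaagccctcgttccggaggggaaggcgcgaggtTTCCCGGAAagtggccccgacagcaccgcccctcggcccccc
Cd44, chr2:102901666-102901915, minus strand: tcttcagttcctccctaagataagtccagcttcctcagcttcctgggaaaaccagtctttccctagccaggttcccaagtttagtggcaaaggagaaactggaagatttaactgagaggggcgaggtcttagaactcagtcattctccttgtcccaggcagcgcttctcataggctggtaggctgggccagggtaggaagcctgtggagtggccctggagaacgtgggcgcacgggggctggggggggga
Alcam, chr16:52453082-52453331, minus strand: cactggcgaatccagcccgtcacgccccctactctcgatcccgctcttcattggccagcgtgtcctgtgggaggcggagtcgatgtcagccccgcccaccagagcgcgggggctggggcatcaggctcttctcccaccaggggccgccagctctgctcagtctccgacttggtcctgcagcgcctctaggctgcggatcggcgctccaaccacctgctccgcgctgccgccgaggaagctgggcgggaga

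7 motifs were searched on both strands: CACGTG and TCATGTG (E-box and M-box of the MITF and TFE family), the NF-kB motif GGNANTTCC and a longer form of it, TTCNNNGAA (STAT), TGANTCA (AP-1) and GAGGAAGT (PU.1). Icam1 held 2 matches to GGNANTTCC, which start 153 and 84 bases before the transcript start, and 1 match to TTCNNNGAA. Over 32851 promoter windows of the same length, 3.92% held GGNANTTCC and 7.02% held TTCNNNGAA. F11r held 1 TGANTCA, a motif of 6.75% of windows. Cd44 and Alcam held none of the 7, and neither E-box form (6.02% and 3.25% of windows) was found in any of the 4 windows. A match describes letters in this window and not a bound site.

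Libraries held 8191510 to 27106600 counts in the age table, 14372000 to 30378900 in the WT ASO table and 12517800 to 30431400 in the SgshKO ASO table. CPM below are the usual depth-normalised counts, scaled by TMM factors, and differences between groups are log2 values from the edgeR model. In WT libraries each ASO lowered its own target RNA (log2 differences of -4.81 for Mitf, -3.24 for Tfeb and -2.38 for Tfe3), and combo lowered Mitf (-2.26) and Tfe3 (-1.08), with no overlap between groups. Sgsh RNA was 20.3 to 25.8 CPM in WT and 14.9 to 23.4 in SgshKO at 3 weeks, 30.7 to 39.3 and 22.9 to 30.3 at 4 months, and 31.9 to 59.2 and 20.1 to 34.7 at 8 months. It was lower in SgshKO at 8 months by the test (-0.74 ± 0.16, SE, adjusted p = 5.83e-04) and did not pass at 3 weeks (adjusted p = 0.434) or 4 months (adjusted p = 0.334), and Sgsh RNA was present in every SgshKO library. The 12 microglial markers summed to 56631 to 58568 CPM in WT and 50800 to 54727 in SgshKO at 3 weeks, 46959 to 52707 and 32106 to 36987 at 4 months, and 42864 to 51653 and 34475 to 38118 at 8 months. That sum was thus lower in SgshKO at each age with no overlap, as Pecam1 and F11r were. At 8 months 8 of the 12 markers were called lower and 3 higher, where 40.5% of all genes were called. The part of the marker sum in the Pecam1 and F11r values was not tested. Neutrophil markers (10 genes) stood apart: they summed to at most 31.3 CPM in the 9 WT libraries and in the 4 SgshKO libraries of 3 weeks, to 3025 and 14866 CPM in the 4-month SgshKO libraries and to 437 to 5874 CPM in the 8-month ones. In these bulk samples, fewer cells of a type and less RNA per cell cannot be told apart.

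Per transcript length (TPM), F11r was the most abundant of the group in resting microglia and Alcam the least. At 3 weeks WT libraries averaged 433 ± 19.1 TPM for F11r, 112 ± 3.02 for Icam1, 27.3 ± 3.46 for Pecam1, 1.72 ± 0.217 for Vcam1, 0.731 ± 0.0351 for Cd44 and 0.316 ± 0.0829 for Alcam (SD, n = 3). No neighbours in that order overlapped. In WT mice at 8 months Cd44 (0.235 to 0.490 TPM) and Alcam (0.192 to 0.425 TPM) overlapped. At 8 months the SgshKO order was different below Icam1: F11r 252 ± 12.5 TPM, Icam1 95.9 ± 11.4, Vcam1 21.2 ± 4.60, Cd44 6.89 ± 4.01, Pecam1 4.09 ± 0.667 and Alcam 1.62 ± 0.472 (SD, n = 7). Cd44 and Pecam1 overlapped there, so their order is not set beyond the spread. For Pecam1, Cd44 and Alcam the TPM table lists another transcript than the count table, with another length.

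**Figure D1:**
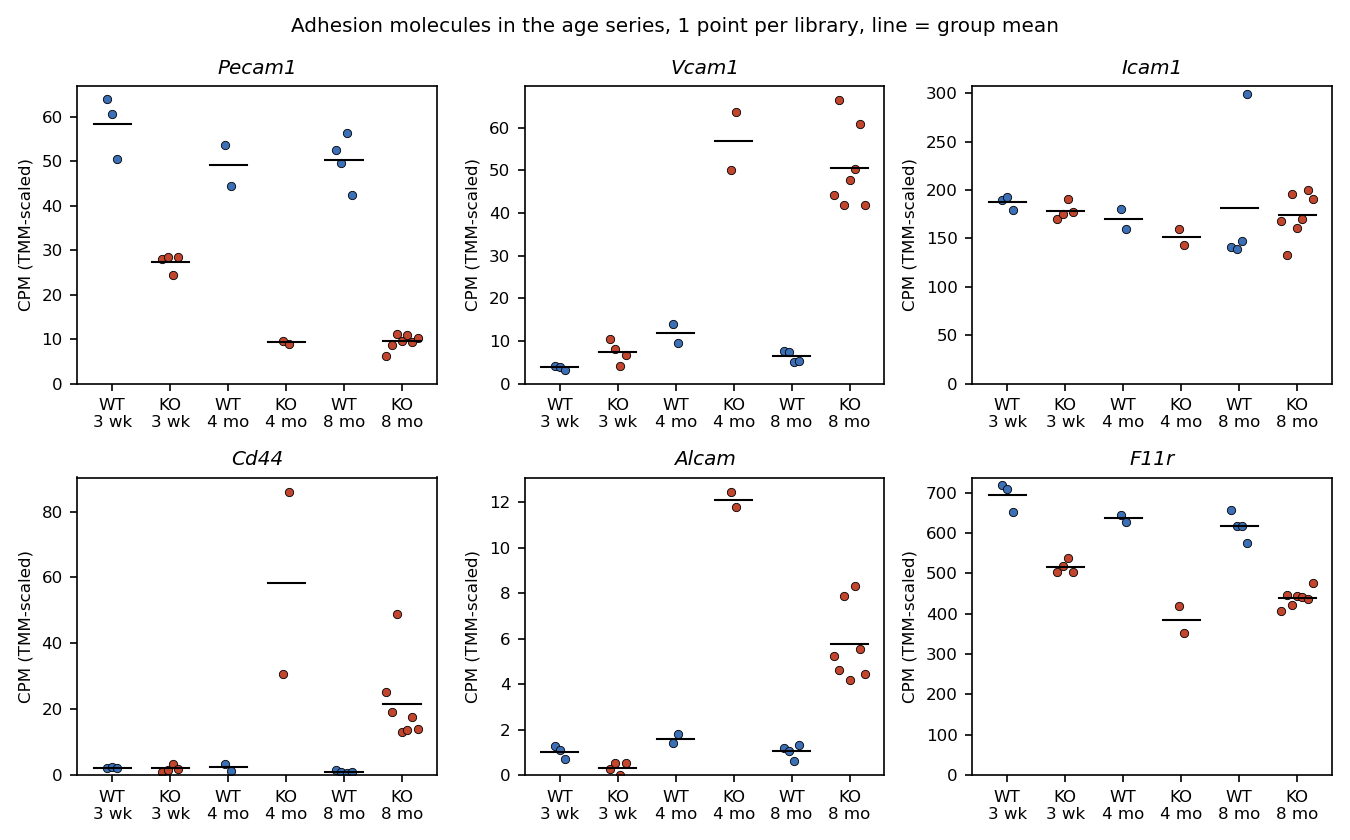
CPM of each adhesion molecule (y axis, linear) in the 22 libraries of the age series by genotype and age (x axis, WT blue, SgshKO red); each point is 1 library and each line a group mean. Pecam1 and F11r sit lower in SgshKO at each age, Vcam1, Cd44 and Alcam sit high in the 4- and 8-month SgshKO libraries, and Icam1 differs mainly by 1 WT library of 8 months at 299 CPM.

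Pecam1, the homophilic receptor, measured 64.0, 60.6 and 50.5 CPM in the WT libraries of 3 weeks and 28.1, 28.3, 24.4 and 28.4 CPM in the SgshKO ones. WT values at 4 months were 53.7 and 44.4 CPM, against 9.66 and 8.86 in SgshKO. WT mice of 8 months gave 52.6, 49.5, 56.3 and 42.5 CPM, and the 7 SgshKO libraries ranged from 6.29 to 11.1 CPM with a median of 9.64. The genotypes did not overlap at any age, and the gene was chosen because it was lower in SgshKO at each age. The log2 differences, SgshKO against WT, were -1.09, -2.41 and -2.41 at 3 weeks, 4 months and 8 months. The rule fixed the direction at each age, not whether its size differed between ages. The same libraries enter both, so the interaction tests that follow are not independent of the choice. By the interaction term the difference was larger by -1.31 ± 0.26 (SE) at 4 months than at 3 weeks (adjusted p = 0.00651) and by -1.32 ± 0.19 at 8 months (adjusted p = 5.92e-05). The 4-month interaction rested on 2 libraries per genotype: without WT 4-month replicate 1 the adjusted p was 0.0599, and without SgshKO 4-month replicate 2 it was 0.0507. WT Pecam1 did not pass the test with age (-0.25 ± 0.18 at 4 months, adjusted p = 0.510, and -0.21 ± 0.14 at 8 months, adjusted p = 0.442, each against 3 weeks). SgshKO Pecam1 fell by 1.56 from 3 weeks to 4 months (SE 0.19, adjusted p = 1.89e-06) and by 1.53 from 3 weeks to 8 months (SE 0.12, adjusted p = 1.21e-09).

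Since Pecam1 RNA is best known from endothelium, 14 endothelial markers were read beside it, of which 8 had enough counts to test. Emcn was at 0 in all 22 libraries, Cldn5 had 1 count and Ly6c1 had 2 counts in all of them together, while Slc2a1 reached 172 CPM, Kdr 28.4, Flt1 17.1 and Cdh5 8.31. Between genotypes at 8 months 4 of the 8 were higher (Slc2a1, Kdr, Flt1 and Slco1a4) and 1, Cdh5, was lower, where 40.5% of all genes were called. Cdh5, which encodes VE-cadherin, averaged 4.88 ± 1.11 CPM in WT (SD, n = 4) and 2.44 ± 1.02 in SgshKO (SD, n = 7) at 8 months, and thus lay in the same direction as Pecam1. The summed list, of which Slc2a1 was the largest part and is also made by other cells, was 70.1 to 151 CPM in WT and 134 to 220 CPM in SgshKO at 8 months. The part of endothelial RNA in the Pecam1 values was not tested. The 3 genes most like Pecam1 over the 22 libraries, by Pearson r of log2(CPM + 1), were Adgrl1 (0.980), Slc25a37 (0.979) and Slco2b1 (0.978). These r values describe libraries that share genotype and age.

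F11r, the junctional adhesion molecule, was the other member lower in SgshKO. At 3 weeks the libraries gave 719, 710 and 653 CPM in WT and 502, 519, 538 and 503 CPM in SgshKO. Values at 4 months were 644 and 628 CPM in WT, against 420 and 351 in SgshKO. WT libraries of 8 months held 658, 617, 618 and 575 CPM, while the SgshKO ones ranged from 408 to 477 with a median of 441. No pair of groups overlapped, and the log2 differences were -0.43, -0.72 and -0.49. Unlike Pecam1, no interaction passed the test: -0.29 ± 0.12 at 4 months (SE, adjusted p = 0.227) and -0.06 ± 0.10 at 8 months (adjusted p = 0.778), each against 3 weeks. Without SgshKO 4-month replicate 1 the 4-month interaction was -0.47 with an adjusted p of 0.0381. F11r fell with age in SgshKO mice by 0.42 at 4 months (SE 0.09, adjusted p = 6.66e-04) and by 0.23 at 8 months (SE 0.06, adjusted p = 0.00525). In WT mice the changes were -0.13 ± 0.09 (adjusted p = 0.524) and -0.17 ± 0.07 (adjusted p = 0.184). Ggt5 (r = 0.966), Klhdc8b (0.965) and Slco2b1 (0.962) followed F11r most closely, and Slco2b1 was thus among the 3 nearest genes of both lower members.

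Vcam1, the ligand of the integrin VLA-4 (Itga4 with Itgb1), was low in young WT microglia at 4.21, 3.91 and 3.24 CPM. SgshKO libraries of 3 weeks gave 10.5, 7.99, 4.16 and 6.80 CPM, so 3 of 4 lay above every WT library. WT libraries of 4 months held 13.9 and 9.54 CPM, against 49.997 and 63.7 in SgshKO. At 8 months WT values were 7.63, 7.47, 5.05 and 5.22 CPM, and SgshKO values ranged from 42.0 to 66.7 with a median of 47.7. The log2 differences between genotypes were 0.99, 2.29 and 2.99 at the 3 ages. Vcam1 was the only member to pass the test with age in WT mice in the main edgeR model. It rose by 1.62 ± 0.29 from 3 weeks to 4 months (SE, adjusted p = 0.00137, higher in 2 of 2 libraries). The WT difference at 8 months, 0.75 ± 0.26, did not pass (adjusted p = 0.0743), but it did with DESeq2 (adjusted p = 0.0320) and without a filter on low counts (adjusted p = 0.0273). In SgshKO mice Vcam1 rose by 2.92 ± 0.24 at 4 months (adjusted p = 6.36e-09) and by 2.75 ± 0.20 at 8 months (adjusted p = 3.40e-10). The genotype difference was larger at 8 months than at 3 weeks by 1.997 ± 0.32 (adjusted p = 1.69e-04), while at 4 months the interaction of 1.30 ± 0.39 did not pass (adjusted p = 0.0740; 0.0205 with DESeq2). The nearest genes were Rai14 (r = 0.976), Tnfsf8 (0.969) and Smpdl3a (0.966).

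Icam1, the ligand of the beta-2 integrins, was level across genotypes and ages in the age series. It gave 190, 193 and 180 CPM in WT and 171, 175, 191 and 177 CPM in SgshKO at 3 weeks. At 4 months WT libraries gave 180 and 160 CPM and SgshKO libraries 160 and 143 CPM. WT libraries of 8 months held 141, 139, 147 and 299 CPM, and SgshKO libraries 133 to 200 CPM with a median of 171. Log2 genotype differences were -0.07, -0.17 and -0.06. No tested comparison of Icam1 passed in the age series, and the 95% interval of its interaction at 8 months ran from -0.45 to 0.48. WT 8-month replicate 4, at 299 CPM, moved these values: without it the 8-month genotype difference was 0.26 and WT Icam1 changed by -0.40 from 3 weeks to 8 months (adjusted p = 0.0282). That library also had the highest endothelial marker sum of its group, 151 CPM against 70.1 to 74.0, and the highest sum of the 23 NF-kB and cytokine genes, 4380 CPM against 3602 to 3709. Their part in the Icam1 value was not tested.

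Cd44, the hyaluronan receptor, and Alcam were close to the detection limit in WT microglia. Cd44 gave 2.03, 2.35 and 2.18 CPM in WT and 1.04, 1.66, 3.29 and 1.97 CPM in SgshKO at 3 weeks. At 4 months WT libraries gave 3.31 and 1.363 CPM and SgshKO libraries 30.8 and 86.1 CPM. WT libraries of 8 months held 1.46, 0.970, 0.661 and 0.973 CPM, against 13.01 to 48.8 CPM in SgshKO with a median of 17.6. The groups overlapped at 3 weeks and were far apart later, with log2 differences of -0.21, 4.72 and 4.44. The interaction was 4.93 ± 0.80 at 4 months (SE, adjusted p = 0.00118) and 4.65 ± 0.67 at 8 months (adjusted p = 4.66e-05). Within SgshKO mice Cd44 rose by 4.95 ± 0.48 at 4 months (adjusted p = 6.76e-08) and by 3.52 ± 0.42 at 8 months (adjusted p = 5.77e-07). WT Cd44 did not pass at either age (0.02 ± 0.63, adjusted p = 0.998, and -1.13 ± 0.54, adjusted p = 0.225).

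Cd44 moved with neutrophil RNA across the 4 libraries richest in it. Its 4 highest values, 86.1, 48.8, 30.8 and 25.1 CPM, came from the 4 libraries with the highest neutrophil sums, 14866, 5874, 3025 and 2863 CPM, in the same order. Of the other 5 older SgshKO libraries, only replicate 6 of 8 months was out of that order. It had the lowest sum, 437 CPM, and 17.6 CPM of Cd44. Replicates 4, 5, 7 and 2 had rising sums of 653, 758, 761 and 836 CPM. Their Cd44 rose in the same order, at 13.01, 13.7, 13.8 and 19.1 CPM. Anxa1 (r = 0.978), Cd177 (0.977) and Ltf (0.977), of which Cd177 and Ltf are neutrophil genes, were the genes most like Cd44 over the 22 libraries. Without the 2 SgshKO 8-month libraries above 1000 CPM of neutrophil markers, a limit chosen after seeing the data, the 8-month rise from 3 weeks was 3.01 ± 0.33 (adjusted p = 3.56e-07) and the genotype difference 3.94. The 5 libraries left still held 437 to 836 CPM of those markers, so no 8-month SgshKO library was free of them. The part of neutrophil RNA in Cd44 was not tested beyond these values.

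**Figure D2:**
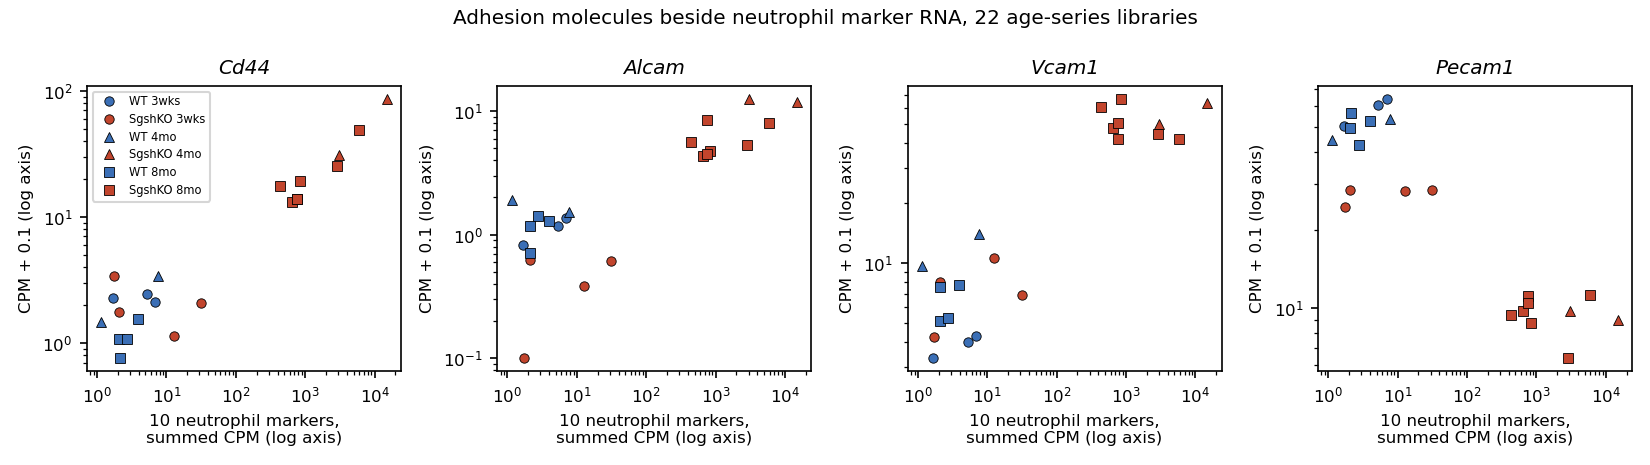
CPM + 0.1 of 4 adhesion molecules (y axes, log scale) against the summed CPM of 10 neutrophil markers (x axes, log scale) in the 22 age-series libraries, 1 point per library. Cd44 measures 25.1 to 86.1 CPM in the 4 older SgshKO libraries with the highest sums, rising in their order. It measures 13.01 to 19.1 CPM in the other 5, where replicate 6 of 8 months alone is out of the order of the sum. Alcam measures 5.23 to 12.5 CPM in the 4 libraries with the highest sums against 4.1999 to 8.33 CPM in the other 5. Vcam1 (41.97 to 63.7 CPM in those 4, 42.01 to 66.7 in the other 5) and Pecam1 (6.29 to 11.1 and 8.66 to 10.98 CPM) overlap between the same libraries.

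Alcam rested on few reads. WT libraries of 3 weeks had 18, 18 and 13 counts (1.26, 1.08 and 0.726 CPM) and SgshKO libraries 6, 11, 0 and 7 counts. A count of 0 in the third SgshKO library allows up to 3 counts, or 0.290 CPM. At 4 months WT libraries gave 1.42 and 1.79 CPM, against 12.5 and 11.8 in SgshKO. WT libraries of 8 months held 1.18, 1.07, 0.613 and 1.33 CPM, and SgshKO libraries 4.1999 to 8.33 with a median of 5.23. Alcam was thus lower in the SgshKO libraries at 3 weeks (log2 difference -1.52) and higher later (2.90 and 2.48). The 3-week value rested on 24 SgshKO and 49 WT counts in all, and ranged from -1.58 to -0.27 under other settings. The change of the genotype difference from 3 weeks passed the test, at 4.42 ± 0.75 for 4 months (SE, adjusted p = 0.00168) and 4.00 ± 0.61 for 8 months (adjusted p = 9.92e-05). SgshKO Alcam rose by 5.08 ± 0.49 to 4 months (adjusted p = 6.10e-08) and by 4.01 ± 0.43 to 8 months (adjusted p = 1.24e-07), from a start at which 1 library had no count. WT Alcam did not pass (0.66 ± 0.53, adjusted p = 0.586, and 0.02 ± 0.45, adjusted p = 0.995). Leaving out the 2 neutrophil-rich 8-month libraries gave a rise of 3.92, near the value with them. Over the 9 older SgshKO libraries Alcam measured 11.8, 7.90, 12.5 and 5.23 CPM in the 4 with the highest neutrophil sums, in falling order of the sum, and 4.1999 to 8.33 CPM in the other 5. Both 4-month libraries are among those 4, and the part of neutrophil RNA in Alcam was not tested. Nearest in pattern were Cybb (r = 0.955), Fxyd5 (0.948) and St8sia6 (0.933).

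Counted together, the SgshKO contrasts called 3 of 6 members at 3 weeks (Vcam1 higher, Pecam1 and F11r lower), against 9.03% of all genes tested. At 4 and 8 months 5 of 6 were called, against 19.5% and 40.5% of genes. The groups did not overlap for 3, 6 and 5 members at the 3 ages, against 22.5%, 58.1% and 25.2% of genes. Nothing is read from these counts because the members were chosen on these contrasts. WT mice had 1 of 6 called at 4 months and 0 of 6 at 8 months, where 5.21% and 7.65% of genes were called. The 8-month count of 0 stood beside 3 members with an unadjusted p below 0.05, and DESeq2 called 1. SgshKO mice had 5 of 6 called at both ages, all but Icam1, against 32.7% and 30.6% of genes. The interactions called 3 of 6 members at 4 months and 4 of 6 at 8 months, against 2.52% and 9.25% of genes. The median log2 interaction at 8 months was 1.01 over the members and 0.02 over all genes. Interactions are built from the genotype contrasts on which the members were chosen. Nothing is read from their counts or their median either.

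**Figure D3:**
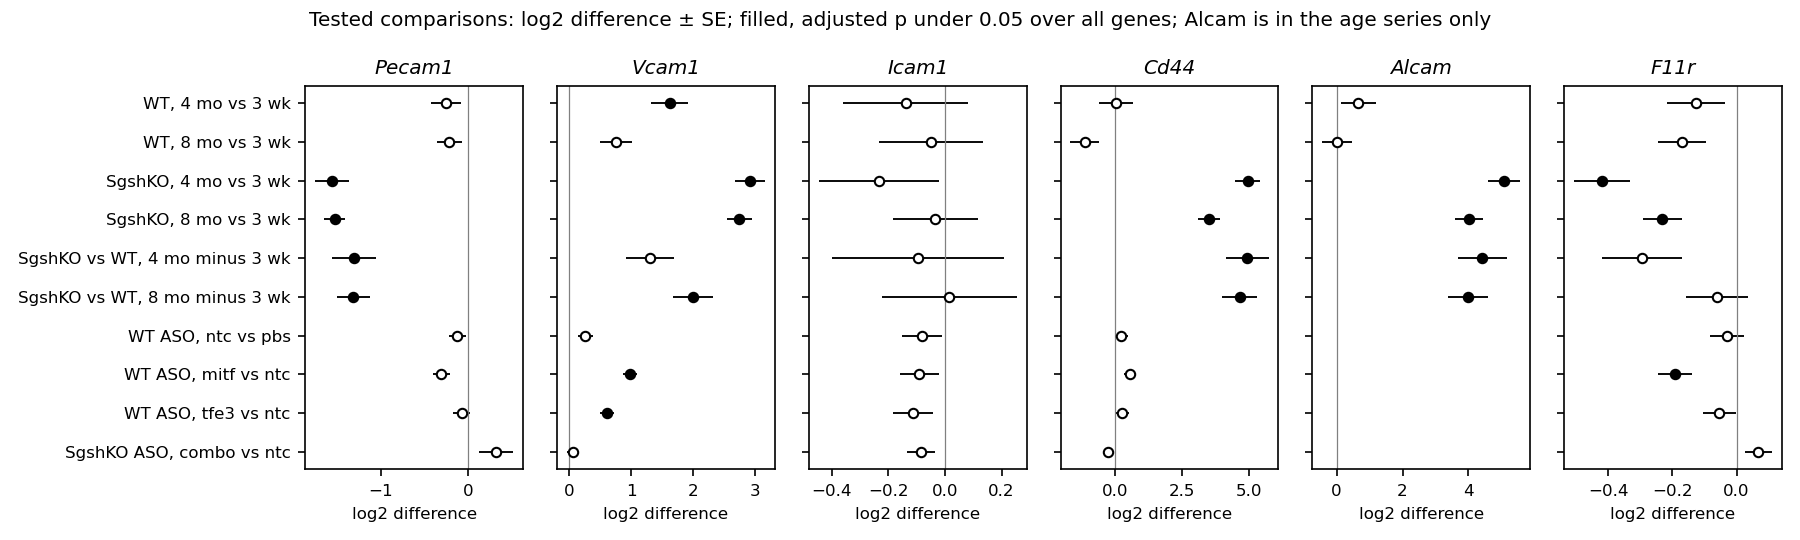
Log2 difference with its SE (x axes, a scale of its own in each panel) for each adhesion molecule in the 10 comparisons that were tested (y axis). Filled points passed an adjusted p of 0.05 over all genes: none for Icam1, and for Vcam1 both SgshKO age comparisons, WT at 4 months, the 8-month interaction and the Mitf and Tfe3 ASOs.

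The binding partners of the 6 molecules, a list of 18 integrins, ligands and hyaluronan synthases, were read in the same comparisons. In SgshKO mice 9 of 14 tested partners rose and 3 fell from 3 weeks to 8 months, with a median of 2.28 against 0.02 over all genes, where 30.6% of all genes were called. In WT mice 1 rose and 2 fell, where 7.65% of all genes were called. Itga4, the alpha chain of the Vcam1 receptor, rose in SgshKO by 2.45 ± 0.42 (SE, adjusted p = 8.74e-05) and fell in WT by 1.94 (SE 0.54, adjusted p = 0.0252), and its interaction was 4.39 ± 0.67 (adjusted p = 1.05e-04). Its partner chain Itgb1 fell in SgshKO by 0.43 (SE 0.06, adjusted p = 1.64e-05). For Icam1 and F11r, the receptor chain Itgal rose by 3.65 ± 0.45 in SgshKO (adjusted p = 1.22e-06) and Itgb2 by 0.75 ± 0.06 (adjusted p = 1.02e-09). The Cd44 ligand Spp1 averaged 3.85 ± 0.459 CPM at 3 weeks (SD, n = 4) and 91.6 ± 36.9 CPM at 8 months (SD, n = 7) in SgshKO, a rise of 4.55 ± 0.42 (SE, adjusted p = 1.30e-08). Cd177, a neutrophil protein that binds Pecam1, was 0 to 0.731 CPM at 3 weeks and 12.1 to 129 CPM at 8 months in SgshKO (adjusted p = 2.65e-06). Cd6, the Alcam receptor, was too low to test. Itgal and Spn are also leukocyte genes, and the neutrophil sums above moved with the same contrast; their part was not tested.

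Other lists gave the following counts for SgshKO mice, 8 months against 3 weeks, where 30.6% of all genes were called. Of 22 tested immunoglobulin and junctional adhesion molecules beyond the members, 8 rose and 2 fell, led by Jaml (6.01) and Mcemp1 (4.89), with a median of 0.68. Among 21 genes of tail linkers, signalling and shedding 5 rose and 7 fell, led by Mmp9 (8.68, a protease stored in neutrophil granules) and Afdn (2.28). Of 23 NF-kB and cytokine genes, known inputs to Vcam1 and Icam1, 4 rose and 5 fell, led by Tnf (2.35) and Il1r1 (2.33), with a median of -0.10 against 0.02 over all genes. Jaml and Mmp9 had 1 and 5 counts over the 4 SgshKO libraries of 3 weeks together, so their fitted values depend on the prior count and give no size.

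The ASO libraries ask whether the members move when Mitf, Tfeb or Tfe3 RNA is lowered in WT microglia. Vcam1 was higher with each of the 3 ASOs, and F11r was slightly lower with the Mitf ASO. Icam1, Cd44 and Pecam1 passed no test against ntc in the main edgeR model, and Pecam1 did in some alternatives given below. Vcam1 gave 7.71, 9.07, 12.9 and 10.3 CPM with PBS and 12.4, 11.1, 14.2 and 10.1 CPM with ntc. With the Mitf ASO it gave 26.7, 19.7, 26.7 and 20.9 CPM. The Tfe3 ASO gave 18.2, 19.4, 18.4 and 16.2 CPM and the Tfeb ASO 20.3, 19.1, 25.5 and 19.5 CPM. Each ASO library lay above every control library, PBS included. Against ntc alone the groups did not overlap for 7.67% of genes with the Mitf ASO, 4.68% with the Tfe3 ASO and 4.07% with the Tfeb ASO, and Vcam1 was the only member of 5 among them. Against ntc the rise was 0.98 ± 0.11 with the Mitf ASO (SE, adjusted p = 2.53e-05) and 0.61 ± 0.11 with the Tfe3 ASO (adjusted p = 0.00786, but 0.161 without the replicate block), and the difference with the Tfeb ASO was 0.82. All 3 share the 4 ntc libraries, which the choice of Vcam1 had used. Against PBS, which that choice had not used, the values were 1.24 ± 0.11 for Mitf (adjusted p = 9.24e-07) and 0.87 ± 0.12 for Tfe3 (adjusted p = 1.68e-04). The ntc and PBS libraries differed for Vcam1 by 0.26 ± 0.12, with an interval from 0.03 to 0.49. That did not pass (edgeR, unadjusted p = 0.0402, adjusted p = 0.999995), in a comparison where 0% of genes were called. The values against PBS include this difference.

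**Figure D4:**
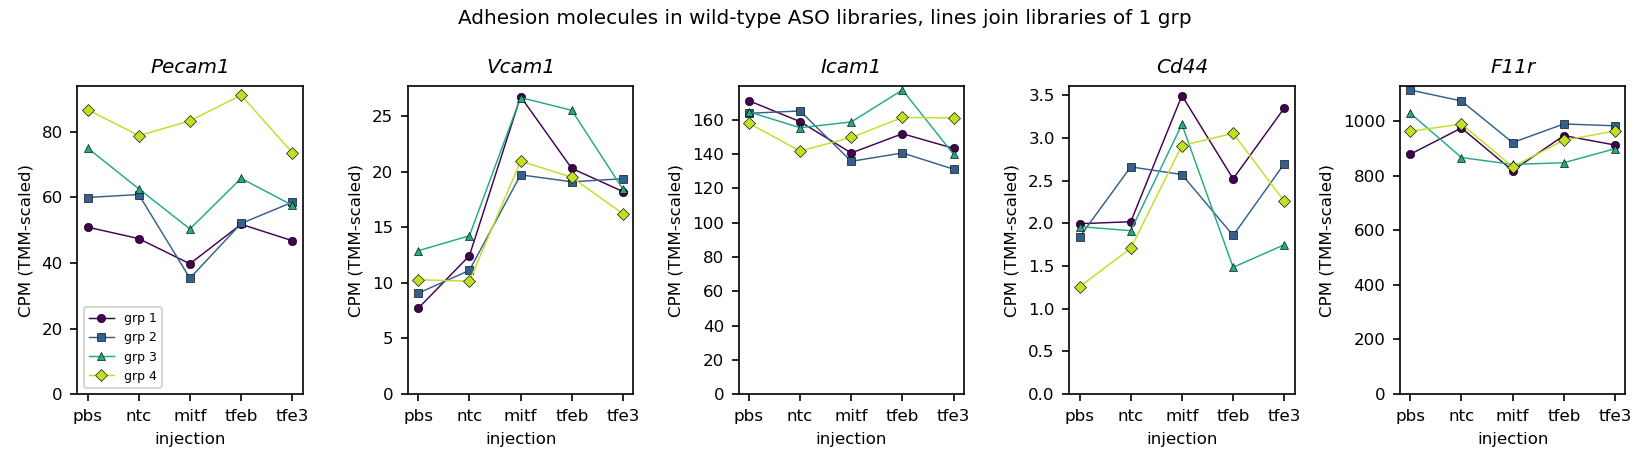
CPM (y axes, linear from 0) of 5 adhesion molecules in the 20 WT libraries by injection (x axis); lines join libraries with the same grp number in the labels. Vcam1 lies between 16.2 and 26.7 CPM with any of the 3 ASOs and between 7.71 and 14.2 CPM in both controls, and Pecam1 differs more by grp than by injection.

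F11r fell with the Mitf ASO by 0.19 (SE 0.05, adjusted p = 0.0246), from 866 to 1073 CPM with ntc to 818 to 921 CPM, and the groups overlapped. That call was lost without the replicate block (adjusted p = 0.240) and without any 1 of 6 libraries (ntc replicates 1, 2 and 4, Mitf replicates 1, 2 and 4; adjusted p from 0.0690 to 0.131). Pecam1 gave 47.5, 60.9, 62.7 and 78.9 CPM with ntc and 39.8, 35.4, 50.4 and 83.4 CPM with the Mitf ASO. The Pecam1 difference of -0.30 ± 0.10 did not pass (adjusted p = 0.0613), but it did without Mitf replicate 4 (-0.43, adjusted p = 0.00699), with DESeq2 (adjusted p = 0.0332) and against PBS (-0.43, adjusted p = 0.00681). Cd44, at 1.71 to 2.66 CPM with ntc and 2.57 to 3.50 CPM with the Mitf ASO, differed by 0.55 ± 0.24 (adjusted p = 0.151), and against PBS by 0.78 (adjusted p = 0.0309). Icam1 ranged from 131 to 177 CPM over all 20 libraries, and its intervals ran from -0.23 to 0.05 with the Mitf ASO and from -0.25 to 0.03 with the Tfe3 ASO.

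2 of 5 members were called with the Mitf ASO, against 11.0% of genes, and 1 of 5 with the Tfe3 ASO, against 2.16%. The Tfeb ASO called 1 of 5, against 0.778%, a count that the choice of Vcam1 set and from which nothing is read. Between ntc and PBS edgeR called 0 members and 0% of genes, with 1 member (Vcam1) and 415 genes at an unadjusted p below 0.05. Of 9 partners in this table, 2 rose and 1 fell with the Mitf ASO: Itgax by 1.04 ± 0.21 (adjusted p = 0.00411), Itgb2 by 0.31 ± 0.04 (adjusted p = 4.06e-05), and Itgav by -0.21 ± 0.05 (adjusted p = 0.0184). With the Tfe3 ASO Itgb2 (0.37 ± 0.04, adjusted p = 3.24e-05) and Itgam (0.19 ± 0.04, adjusted p = 0.0172) rose. The genes nearest to Vcam1 over these 20 libraries, named after their values were seen, were Man2b1 (r = 0.917), Ctss (0.899) and Gm2a (0.895), which encode a lysosomal mannosidase, cathepsin S and the GM2 activator. No member of the neutrophil list is among the genes of this table.

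In SgshKO microglia the combination ASO changed no member past the threshold. Vcam1 ranged from 54.7 to 70.7 CPM with ntc (median 68.7) and from 44.0 to 85.9 with combo (median 70.1), a difference of 0.06 ± 0.10 (SE, adjusted p = 0.748) with an interval from -0.13 to 0.26. Icam1 differed by -0.08 ± 0.05 (adjusted p = 0.303) and F11r by 0.07 ± 0.04 (adjusted p = 0.343). Cd44 was 4.37 to 6.73 CPM with ntc and 3.52 to 6.48 CPM with combo, and 4 of 8 combo libraries, all of grp 1, lay below every ntc library. The Cd44 difference of -0.26 ± 0.11 did not pass (adjusted p = 0.136); on the authors' batch-corrected signal it was -0.35 (adjusted p = 0.0476), and without combo grp 2 replicate 1 it was -0.33 (adjusted p = 0.0495). Pecam1 spread most, from 56.3 to 132 CPM with ntc and from 62.3 to 169 with combo, a difference of 0.33 ± 0.19 (adjusted p = 0.311). edgeR called 0 of 5 members here, against 9.33% of genes, with 1 member at an unadjusted p below 0.05. Of 10 partners 3 rose and 1 fell, led by Itgax (-0.64 ± 0.04, adjusted p = 4.62e-08) and Srgn (0.23 ± 0.04, adjusted p = 0.00121). Whether combo in SgshKO mice differs from single ASOs in WT mice was not tested, because the tables were counted separately.

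**Figure D5:**
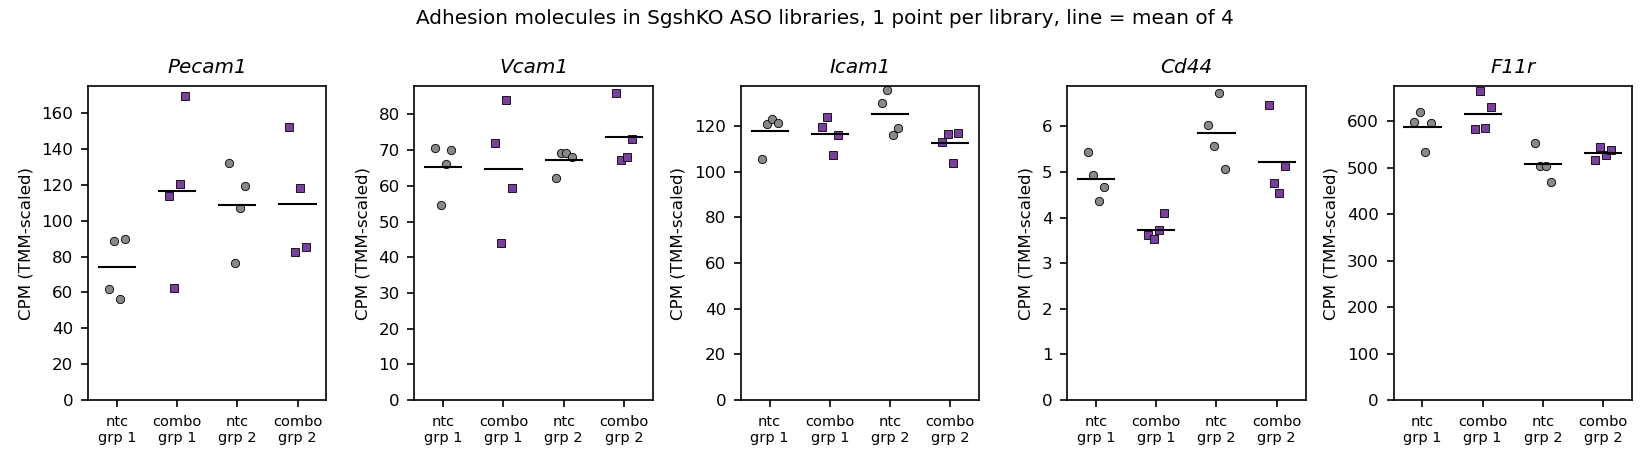
CPM (y axes, linear from 0) of 5 adhesion molecules in the 16 SgshKO libraries by injection and grp (x axis); points are libraries and lines means of 4. Cd44 lies at 3.52 to 4.09 CPM in combo grp 1 and at 4.37 CPM or more in both ntc sets, and the other members overlap between ntc and combo.

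The grp numbers of the SgshKO ASO libraries differed in neutrophil RNA: 6 markers in that table summed to 0.996 to 42.3 CPM in grp 1 and to 71.3 to 564 CPM in grp 2. Cd44 averaged 4.85 ± 0.456 CPM with ntc in grp 1 and 5.85 ± 0.706 in grp 2 (SD, n = 4 each). In the 4 ntc libraries of grp 1, where the sum was at most 3.07 CPM, Cd44 was 4.37 to 5.44 CPM. The model holds grp as a term. Within grp 1 alone the combo difference was -0.36 for Cd44 (edgeR, adjusted p = 0.242) and 0.67 for Pecam1 (adjusted p = 0.166), and within grp 2 alone it was -0.17 (adjusted p = 0.614) and 0.0047 (adjusted p = 0.992).

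Pecam1 in the SgshKO ASO table ran with pseudogenes. Its nearest genes over the 16 SgshKO ASO libraries, named after their values were seen, were AW822252 (r = 0.964), Gm29013 (0.934) and Gm2961 (0.929), all annotated as pseudogenes on chromosomes other than that of Pecam1. Over the 20 WT ASO libraries the nearest genes were others: Slc35e1 (r = 0.904), Ano6 (0.897) and Bmpr2 (0.893). AW822252 and Gm2961 had r of 0.751 and 0.733 there. Sequence shared between genes was counted in GENCODE vM21 as stretches of 31 bases. A retained-intron transcript of Pecam1, at chr11:106661185-106663326, shares such stretches with 1171 other genes, but only 1 with AW822252, 3 with Gm29013 and 5 with Gm2961. The other Pecam1 transcripts in GENCODE vM21 share none. Other members have such transcripts too: 1 of Icam1 shares stretches with 1560 genes, 1 of Vcam1 with 660, and the longest of F11r with 1462. Whether reads were divided between genes was not tested for any member.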

How the data were processed

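PolyA RNA-seq of sorted microglia was analysed from 3 tables of raw counts per gene that the authors deposited: 22 libraries of the age series (RefSeq models with mm10 positions, per the file headers) and 20 WT and 16 SgshKO ASO libraries (Ensembl genes, low genes already absent). A TPM table of the age series and 2 tables of normalised, batch-corrected signal, also deposited by the authors, served as alternatives. Per the submitters' processing notes, STAR 2.5.3a, kallisto 0.44.0, HOMER 4.11, DESeq2 1.36.0 and R 4.2.3 were used, with no role given for each. Which tool counted which table, and how the signal was corrected, is not given in the sources used here.

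Counts were tested in R 4.3.3 with edgeR 4.0.16 (quasi-likelihood, TMM, filterByExpr with a minimum count of 10), 1 model per table, Benjamini-Hochberg adjusted over all genes tested (14309, 10277 and 10589), with a threshold of 0.05. All 6 members passed the filter of the age table. ASO models held grp as a block; PBS replicate 4 is grp 4 in its title and grp 3 in its column name, and was put in grp 4. In the WT ASO table libraries with the same number correlated after removal of group means (r 0.0514 to 0.720 over 40 pairs, with 1 pair under 0.1), as did same-numbered SgshKO libraries within grp 1 (0.285 to 0.759) and grp 2 (0.200 to 0.559). Age-series numbers did not (-0.175 to 0.155). No 2 libraries were identical. Alternatives were DESeq2 1.42.0, limma 3.58.1 on log2(value + 1) of TPM or signal, no filter, other scaling, the block added or dropped, PBS as control, and leaving out each library. Tests were checked on simulated counts. Intervals are 1.96 SE on each side and cover counting error and spread between libraries only.

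The members and gene lists were chosen with earlier results of these data known. Named genes are the 6 members, their binding partners, at most the 2 called genes of each other list with the greatest change, and the 3 genes with the highest r. The results of 1 of these lists are not reported here. Sequences are from RefSeq (GRCm38.p6).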

Additional observations from a re-analysis of the deposited data

Results flagged for a closer look

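Among 53 groups of 4 to 8 libraries in which a member was measured, 3 had 1 library far from the others by Dixon's criterion at 95%, where chance gives about 1 in 20. These were Icam1 in WT 8-month replicate 4 (299 CPM), Pecam1 in SgshKO 3-week replicate 3 (24.4 CPM, against 28.1 to 28.4) and Cd44 in SgshKO 8-month replicate 3 (48.8 CPM), the 8-month library with the highest neutrophil marker sum.

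The interaction term of the edgeR model was called for 3 of 6 members at 4 months, against 2.52% of all genes. At 8 months it was called for 4 of 6, against 9.25%. This term is the change in the difference between SgshKO and WT. From 3 weeks to 4 months it changed by -1.31 for Pecam1, 4.93 for Cd44 and 4.42 for Alcam. From 3 weeks to 8 months it changed by -1.32 for Pecam1, 1.997 for Vcam1, 4.65 for Cd44 and 4.00 for Alcam. The members were chosen on the genotype contrasts that enter this term, so nothing is read from these counts.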

How the results depend on the processing

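The 56 member results with a test gave 896 values under the alternatives. Of these, 870 kept their direction or stayed uncalled, 10 lost their call, 16 gained one, and no called value changed sign. The 4 contrasts given as a description are outside these 896 values. Over all comparisons, those 4 included, 34 sign changes in 13 member comparisons were of values called in neither fit. The number of members called moved by over 1.5 times in 4 comparisons. WT at 8 months against 3 weeks went from 0 to 1 with DESeq2, with no filter and with the replicate block (Vcam1 each time), and ranged from 0 to 1 when single libraries were left out (Icam1 without WT 8-month replicate 4). The Mitf ASO went from 2 to 1 with no replicate block and to 4 with PBS as control, and ranged from 1 to 2 when single libraries were left out. The Tfe3 ASO went from 1 to 0 with no replicate block. Combo went from 0 to 1 on the batch-corrected signal and ranged from 0 to 1 when single libraries were left out; the cause was not tested in any of these. The paired fit with a replicate block changed no call in the SgshKO ASO table (Cd44, adjusted p = 0.183), and in the age series it added Vcam1 in WT at 8 months (adjusted p = 0.0401) and in the 4-month interaction (adjusted p = 0.0462). When single libraries were left out, the Icam1 genotype difference at 8 months ranged from -0.17 to 0.26, and it turned from -0.06 to 0.26 without WT 8-month replicate 4. Leaving out a 4-month library leaves 1 in its group, which is then assumed to vary like the other groups. TPM with a pseudocount of 1 lowered the size of differences of low genes (Alcam, SgshKO against WT at 8 months, 0.96 against 2.48). Depth limits Alcam most, with 0 to 11 counts in SgshKO libraries of 3 weeks.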

Other observations

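Pecam1 stood differently against WT in the 2 sets of SgshKO libraries. In the age table it was 6.29 to 11.1 CPM in SgshKO at 8 months and 42.5 to 56.3 CPM in WT. With the ntc ASO it was 56.3 to 132 CPM in the SgshKO table and 47.5 to 78.9 CPM in the WT table. Vcam1 with ntc was 54.7 to 70.7 CPM in the SgshKO table and 10.1 to 14.2 CPM in the WT table. F11r with ntc was 470 to 620 CPM in the SgshKO table and 866 to 1073 CPM in the WT table. Cd44 with ntc was 4.37 to 6.73 CPM in the SgshKO table and 1.71 to 2.66 CPM in the WT table. Icam1 with ntc was 106 to 136 CPM in the SgshKO table and 142 to 165 CPM in the WT table, without overlap. At 8 months in the age table it was 133 to 200 CPM in SgshKO and 139 to 299 CPM in WT, with overlap. For Vcam1, F11r and Cd44 the SgshKO libraries thus lie on the same side of WT with ntc and at 8 months. For Pecam1 they do not, and for Icam1 they lie lower with ntc but overlap at 8 months. The tables were counted and normalised separately and on other gene models than the age table, the age of the injected mice is not in the labels, and these levels were not tested against each other.

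AW822252, the pseudogene whose RNA ran closest to Pecam1 in the SgshKO ASO table, ranged from 55.1 to 231 CPM there and from 20.3 to 486 CPM in the WT ASO table, where its r with Pecam1 was 0.751 over 20 libraries that share grp.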
